A study of Drosophila melanogaster with 42 samples.

Results

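Whole larvae of Drosophila melanogaster collected at 24 h of the third instar were compared with whole larvae collected at 8 h, in 6 arrays of the 42 in the series. The members are every sample labelled as a wild-type whole body of these hours, with 3 arrays at each. The comparison was chosen with earlier results of these data known, among them the deviation of 24 h replicate 1 from its group. Every larva in both groups was w1118, a strain carrying a mutation of the white gene that serves as the wild type here, with no driver, transgene or added agent. They were kept at 25°C without light and fed yeast paste, and total RNA of each sample was labelled with Cy3 and hybridised to a one-colour NimbleGen array. The series also holds w1118 whole larvae at 4 h and 36 h and dissected w1118 ring glands at the same 4 hours, with 3 arrays in each of these groups, which were used for comparison. The remaining arrays are of ring glands from driver crosses and were not used here. The labels call the 3 samples of a group biological replicates, and they do not give the sex of the larvae, how many were pooled in a sample, or the slide of each array.

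The third instar is the last larval stage of the fly. The larva feeds and grows through its earlier hours, then leaves the food and forms the puparium, and pulses of the steroid hormone ecdysone time these steps. The ring gland contains the cells that make ecdysone. Over the same period the fat body, midgut, epidermis and salivary glands change what they produce, and the imaginal discs and gonads enlarge. A whole-larva array measures the mixture of all these tissues, so a higher share of a tissue in the larva and more RNA per cell cannot be told apart.

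The table held 16637 transcripts with 1 robust multi-array average (RMA) intensity per array. The lower quartile of the whole-larva arrays was between 45.4 and 52.3 intensity units and the median between 281 and 307, so the arrays were on a common scale. Only 44 transcript identifiers could be matched to genes, of which 16 matched 1 gene each and 28 matched several. None of the listed marker genes of fat body, salivary gland, midgut, epidermis, muscle or prothoracic gland was among the 16, and of those listed for haemocytes only LanA was, so the labelled tissue could not be checked against defining markers.

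One of the 6 arrays stood apart from its group. At 24 h, the log2 intensities of replicate 1 correlated with those of replicates 2 and 3 at r = 0.979 and 0.976 over all transcripts, against r = 0.992 between replicates 2 and 3. Between replicate 1 and the other arrays, 1217 and 1423 transcripts were at least 2-fold apart, against 281 between the other two. At 8 h the 3 pairs had 155 to 438 such transcripts. The same was seen at 36 h, where replicate 1 differed at least 2-fold from the others in 1957 and 1906 transcripts, while replicates 2 and 3 were the closest pair of larval arrays, with 1 such transcript. The SD of their log2 difference was 0.132, against 0.282 for the next closest larval pair. Whether these 36 h arrays are of separate samples of larvae, as labelled, was not tested, so the counts shared with the change from 4 h to 36 h are also given without replicate 3. Results that rest on 24 h replicate 1 are therefore given with and without it.

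To place each array along the instar, its log2 deviation from the 4 h mean was projected on the difference between the 36 h and 4 h means, so that the 4 h mean lies at 0 and the 36 h mean at 1. The 8 h arrays lay at 0.113, 0.177 and 0.213. At 24 h, replicate 1 lay at 0.373, while replicates 2 and 3 lay at 0.651 and 0.694. On this axis, replicate 1 at 24 h was thus beyond all 8 h arrays and short of both other 24 h arrays. The position is 1 value over all transcripts, and the difference was uneven across them, as given below. The 36 h mean includes 36 h replicate 1, and no position was computed without that array. The 4 h arrays lay between -0.0158 and 0.0144, and the 36 h arrays at 1.146, 0.925 and 0.929, with replicate 1 the farthest along. The 8 h and 24 h arrays were not used to set the axis, and the values are a description.

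**Figure D1:**
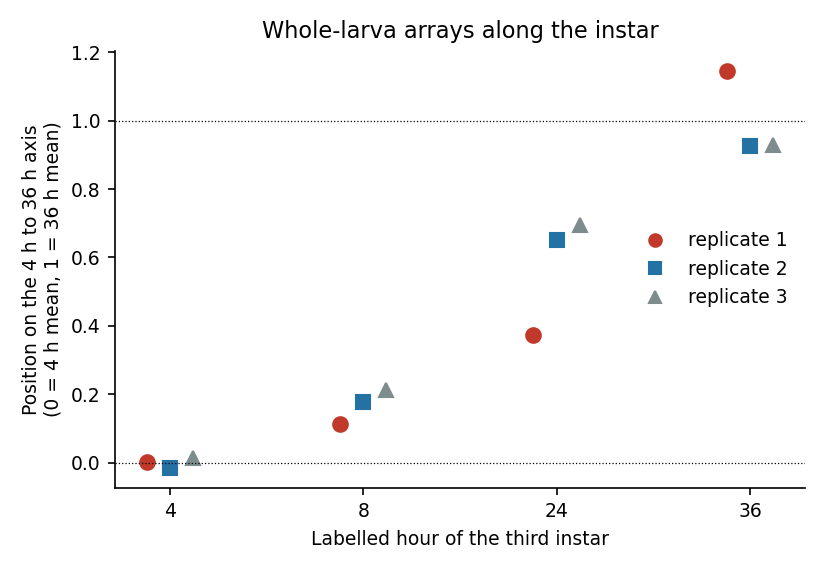
Position of each of the 12 whole-larva arrays (points, by replicate) on the axis from the 4 h mean (0) to the 36 h mean (1), against the labelled hour of the third instar. Replicate 1 at 24 h lies at 0.373, between the 8 h arrays (0.113 to 0.213) and the other 24 h arrays (0.651 and 0.694).

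With all arrays, 3444 of 16637 transcripts (20.7%) changed between 8 h and 24 h. Of these, 1686 rose from 8 to 24 h (10.1% of all tested) and 1758 fell (10.6%) at an adjusted p under 0.05 by limma, 2-sided with Benjamini-Hochberg adjustment over all transcripts. The 3 arrays at 24 h lay above all 8 h arrays for 1573 of the transcripts that rose, and below them for 1704 of those that fell. Over all transcripts, 18% had every 24 h array above every 8 h array and 19% had every one below. The log2 changes ran from -6.53 to 6.95. At least 2-fold changes were called for 439 higher and 516 lower transcripts, at least 4-fold for 101 and 133, at least 16-fold for 26 and 13, and at least 64-fold for 8 and 4. Without 24 h replicate 1, 2131 transcripts rose (12.8%) and 1809 fell (10.9%), of which 1004 rose and 573 fell at least 2-fold, and 235 rose and 155 fell at least 4-fold. At 16-fold these counts were 25 and 21, and at 64-fold 8 and 4. The rises of at least 2-fold and 4-fold and the falls of at least 16-fold were thus more than 1.5 times as many without that array. In the same direction, 2929 transcripts were called both with and without it, and none in opposite directions. A further 1011 were called only without it, of which 757 were higher and 254 lower at 24 h, and 515 only with it.

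Calls were more frequent among bright transcripts. With the transcripts split by mean log2 intensity into 4 groups of equal size, 5.96% were called in the dimmest group, and 17.8%, 27.4% and 31.6% in the groups of rising brightness. No detection threshold comes with the values, and a dim transcript's change is limited by the array's floor.

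The arrays at 4 h and 36 h share no sample with the comparison of 8 h and 24 h, and 53.9% of all transcripts were called between them. Both comparisons took the spread of a transcript from the same fit, however, so their calls are not independent. The shares of all transcripts given beside the counts are also not matched for brightness. Of the 1686 transcripts that rose from 8 to 24 h, 1307 (77.5%) were also higher at 36 h than at 4 h, where 25.6% of all transcripts were, and 31 were lower. Of the 1758 that fell, 1575 (89.6%) were also lower at 36 h than at 4 h, where 28.3% of all transcripts were, and 9 were higher. These shared transcripts made up 30.7% of all rises and 33.5% of all falls between 4 h and 36 h. Among the changes of at least 4-fold, 99 of 101 rises and 131 of 133 falls went the same way in the 4 h and 36 h arrays, and none went the opposite way. With 36 h replicate 1 left out of that comparison the counts were 98 and 131, and with 36 h replicate 3 left out 98 and 130. Without 36 h replicate 3, 1223 of the 1686 rises (72.5%) and 1543 of the 1758 falls (87.8%) were shared, where 23.1% and 26.0% of all transcripts rose and fell.

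The transcripts that rose at least 4-fold had median intensities of 149 at 4 h, 146 at 8 h, 1630 at 24 h and 2400 at 36 h. Their median was therefore near the same level at 4 h and 8 h and reached most of its 36 h level by 24 h. The transcripts that fell at least 4-fold had medians of 2163 at 4 h, 1170 at 8 h, 153 at 24 h and 76.5 at 36 h. Since the 8 h and 24 h values chose these sets, only their 4 h and 36 h levels are independent of the choice.

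The largest changes were seen in transcripts that the reference table does not name. FBtr0073750 had intensities of 14.9, 19.6 and 23.4 on the 8 h arrays and 2596, 1927 and 2568 on the 24 h arrays. Its log2 change was 6.95 ± 0.64 (SE, 3 arrays per group), with an adjusted p of 3.3e-07 by limma. Each SE is that of the limma fit, which pools the spread of a transcript over all 24 wild-type arrays, glands included. At 8 h FBtr0073750 was at the dim end of the arrays, and at 24 h all 3 arrays, replicate 1 included, were bright. FBtr0112474 had 27.8, 60.8 and 116 at 8 h and 5946, 5977 and 6112 at 24 h, a log2 change of 6.69 ± 0.62 with an adjusted p of 4e-07 by limma. Its 24 h arrays lay within a narrow range, while its 8 h arrays were spread over about 4-fold. FBtr0077057 had 7883, 9673 and 8461 at 8 h and 200, 74.1 and 55.3 at 24 h, a log2 change of -6.53 ± 0.34 with an adjusted p of 3.5e-10 by limma. FBtr0085054 had 13697, 18044 and 15594 at 8 h and 372, 141 and 101 at 24 h, a log2 change of -6.49 ± 0.35 with an adjusted p of 4.3e-10 by limma. In both falling transcripts the groups did not overlap, and replicate 1 was the highest of the 24 h arrays.

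The difference between replicate 1 and the other 24 h arrays was uneven across transcripts. In replicate 1, 334 transcripts were at least 4-fold lower than in both other 24 h arrays and 27 were at least 4-fold higher, whereas replicate 2 had 7 and 0 and replicate 3 had 20 and 15. The 334 transcripts were chosen on the 24 h arrays, on which their median intensities were 57.3, 355 and 361. On the 8 h arrays, which played no part in the choice, their medians were 67.7, 118 and 146, and on the 4 h arrays 51.7, 48.4 and 65.6. On the 36 h arrays the medians were 1611, 449 and 438. The array labelled replicate 1 was thus the lowest of the 3 medians at 8 h and 24 h and the highest at 36 h, and at 24 h it was near the level of the 4 h arrays.

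Counted by transcript, replicate 1 was the lowest 8 h array for 314 of the 334 (94%), against 30.7% of all transcripts. At 36 h replicate 1 was the highest array for all 334, against 31.9% of all transcripts, and at least 2-fold above both others for 331 (99.1%), against 9.12%. Of the 334, 325 (97.3%) rose from 4 h to 36 h and none fell, against 25.6% and 28.3% of all transcripts. With 36 h replicate 1 left out 316 rose, against 26.1% of all transcripts, and with 36 h replicate 3 left out 326, against 23.1%. In the ring gland the median intensity of the same transcripts was between 26.2 and 30.2 at the 4 hours, and 308 of the 334 were under 100 on all 3 gland arrays at 24 h. How many of all transcripts were under 100 there was not counted. On those gland arrays the lower quartile was 43.2 to 43.8 and the median 276 to 288. From 8 to 24 h, 1 of the 334 rose in the gland and 0 fell by limma, against 5.08% and 5.58% of all transcripts. At so dim a level a change in the gland is limited by the arrays' floor. In the whole larva 33 of the 334 were called between 8 h and 24 h with all arrays and 292 without replicate 1, against 20.7% and 23.7% of all transcripts. The choice on the 24 h arrays favours this difference. What set the arrays labelled replicate 1 apart was not tested.

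A second choice of transcripts began from the 4 h and 36 h arrays. Of 1032 transcripts that rose at least 4-fold from 4 h to 36 h, 220 were at least 4-fold above the 8 h mean in the mean of 24 h replicates 2 and 3. For each of the 220, the log2 difference between replicate 1 and the 8 h mean was divided by that of replicates 2 and 3. Replicate 1 showed under 0.25 of the rise in 142 transcripts (64.5%), over 0.75 of it in 73 (33.2%) and an intermediate share in 5. Most transcripts thus either had their rise in replicate 1 in full or lacked it. Of 171 transcripts that fell at least 4-fold both from 4 h to 36 h and in replicates 2 and 3, replicate 1 showed under 0.25 of the fall in 16, over 0.75 in 93 and an intermediate share in 62, with a median share of 0.78. The falls were therefore spread over a continuous range that the rises left almost empty.

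**Figure D2:**
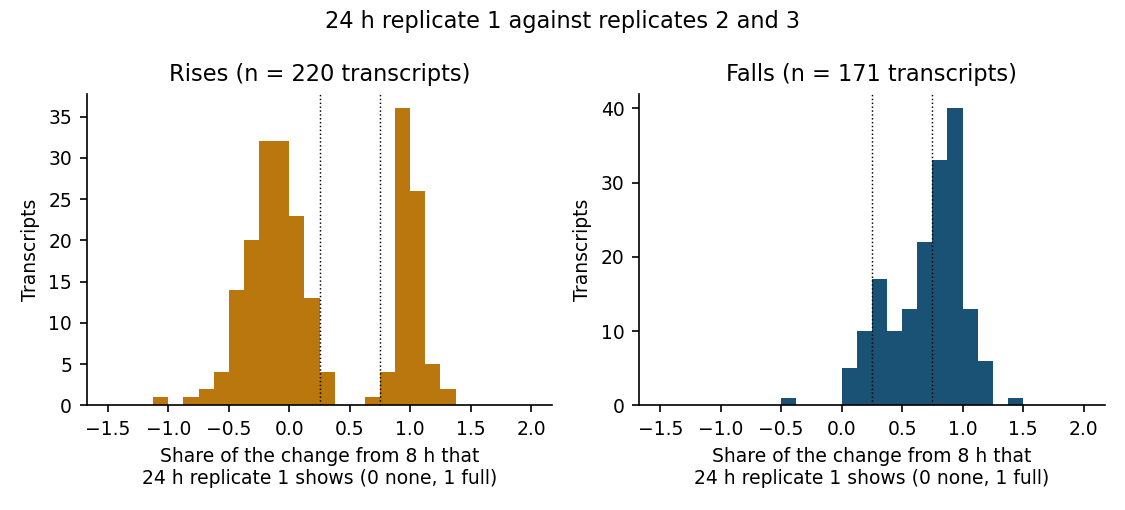
Histograms of the share of each transcript's log2 change from 8 h, measured in 24 h replicates 2 and 3, that replicate 1 shows (0 none, 1 full), for 220 rises (left) and 171 falls (right), with dotted lines at 0.25 and 0.75. The rises form separate groups of 142 and 73 transcripts with 5 between them, and the falls form 1 broad distribution with 62 between the lines.

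The 73 rises that replicate 1 shared had median intensities of 128, 165 and 193 on the 8 h arrays and 2315, 1976 and 2568 on the 24 h arrays. Their 36 h medians were 3041, 3221 and 3391, and replicate 1 was the highest 36 h array for 16 of them (21.9%). The closeness of replicate 1 to the other 24 h arrays was fixed by the choice of this set. In the ring gland their median was 55.8 at 8 h and 343 at 24 h, and 40 of the 73 (54.8%) also rose there, against 5.08% of all transcripts. Both of the most strongly rising transcripts, FBtr0073750 and FBtr0112474, belonged to this set.

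The 142 rises that replicate 1 lacked had medians of 37.1, 49.5 and 65.3 at 8 h and 42, 280 and 274 at 24 h. Their 36 h medians were 1347, 364 and 372, and replicate 1 was the highest 36 h array for all 142. Their larval 24 h levels in replicates 2 and 3 were thus close to the 36 h levels of replicates 2 and 3, and well under that of 36 h replicate 1. The 36 h mean was used to choose them, so the high value of 36 h replicate 1 is not independent of the choice here, unlike that of the 334 transcripts above, of which 114 are shared. In the ring gland their median stayed between 23 and 26.8 at the 4 hours. Of the 142, 137 were under 100 on all 3 gland arrays at 24 h, and no count over all transcripts was made to set beside this. Between 8 h and 24 h, 0 were called in the gland in either direction, where 5.08% of all transcripts rose and 5.58% fell. At so dim a level a change in the gland is limited by the arrays' floor. Of the 101 rises of at least 4-fold called with all arrays, 73 were in the set that replicate 1 shared and 7 in the set that it lacked, and without replicate 1 all 142 of the latter were called. These counts follow from how the sets were chosen on the 24 h arrays and are given as a description.

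The 171 falls had medians of 1143, 1347 and 1207 on the 8 h arrays and of 284, 194 and 114 on the 24 h arrays. Their 36 h medians were 72.8, 75.8 and 75.5. At 24 h the median of replicate 1 was the highest, and at 36 h the 3 medians were nearly level. By transcript, however, 36 h replicate 1 was at least 2-fold above both other arrays for 41 of the 171 (24%), against 9.12% of all transcripts.

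**Figure D3:**
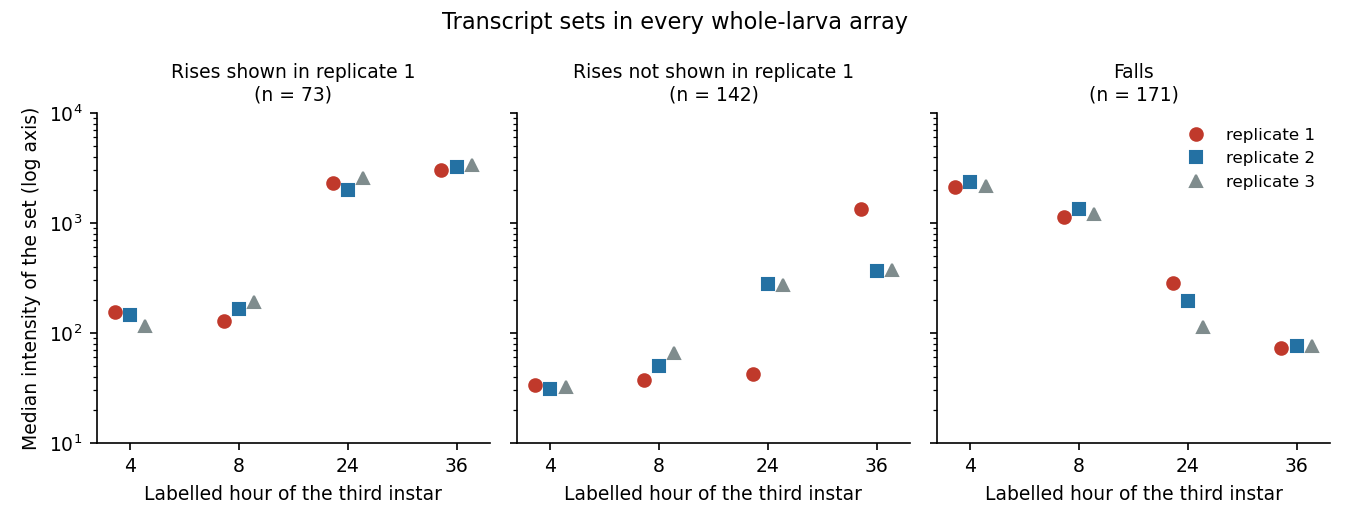
Median intensity (log axis) of 3 sets of transcripts on each of the 12 whole-larva arrays, against the labelled hour of the third instar, with points marked by replicate. In the middle set replicate 1 stays at 42 at 24 h, where the other arrays reach 280 and 274, and is the highest at 36 h with 1347, while in the 73 rises on the left and the 171 falls on the right the arrays of an hour lie closer together.

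Among the 16 transcripts matched to 1 gene each, 3 rose, 2 fell and 11 were not called with all arrays. The 3 rises are to be read against the 10.1% of all transcripts that rose, and the 2 falls against the 10.6% that fell. The median log2 change of the 16 was -0.08, and that of all transcripts was within 0.01 of 0. The groups did not overlap in 8 of the 16, with 24 h above 8 h in 4 and below it in 4, against 18% and 19% of all transcripts. Without 24 h replicate 1, 5 rose and 2 fell, where 12.8% of all transcripts rose and 10.9% fell.

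The transcript of fend (forked end) rose by a log2 change of 0.98 ± 0.23, with an adjusted p of 0.0047 by limma. Its intensities were 1029, 800 and 763 at 8 h and 1426, 1730 and 1964 at 24 h. All 24 h arrays were above all 8 h arrays, and the 36 h arrays, at 1140, 1816 and 1701, covered about the same range. The transcript of mio, a subunit of the GATOR2 complex that relays amino acid supply to TOR signalling, had 115, 108 and 117 at 8 h and 205.3, 175 and 163 at 24 h. Its log2 change was 0.67 ± 0.15, with an adjusted p of 0.0027 by limma, and here replicate 1 was the highest 24 h array. Levels of mio at 4 h were 156, 183 and 190, so that the 8 h arrays were the lowest of the instar. No change of mio was called from 4 h to 36 h (log2 change -0.20 ± 0.15, adjusted p 0.26 by limma). Wdr24, another GATOR2 subunit, had 450, 303 and 299 at 8 h and 361, 485 and 481 at 24 h, a log2 change of 0.35 ± 0.18 with an adjusted p of 0.18 by limma. Its groups overlapped through replicate 1 of both hours. Of the 16 genes listed for nutrient sensing by GATOR and TOR only these 2 were matched, and 1 of the 2 rose, where 10.1% of all transcripts rose.

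SuUR, which slows replication of heterochromatin in polytene chromosomes, fell. Its intensities were 342, 271 and 279 at 8 h and 177, 127 and 204.9 at 24 h, a log2 change of -0.83 ± 0.17 with an adjusted p of 0.0014 by limma. At 4 h it had been at 216, 245 and 237, so the 8 h arrays were the highest of the larval series. The replacement histone gene His4r had 14352, 17123 and 16173 at 8 h and 19063, 18959 and 20101 at 24 h, a log2 change of 0.29 ± 0.09 with an adjusted p of 0.023 by limma. The rise of His4r, the only match among 10 listed histone genes, was small beside that of fend, and its groups did not overlap. The deacetylase gene HDAC3 had 2196, 2489 and 2442 at 8 h and 2285, 2956 and 2801 at 24 h, a log2 change of 0.17 ± 0.09 with an adjusted p of 0.21 by limma. Without replicate 1 the change of HDAC3 was 0.28, with an adjusted p of 0.027 by limma. The chromatin remodeller gene kis had 232, 122 and 136 at 8 h and 121, 97.4 and 117 at 24 h, and its adjusted p was 0.12 by limma. Of the 17 genes listed as chromatin regulators, the 3 matched were kis, HDAC3 and SuUR, of which 1 fell and 0 rose, where 10.6% of all transcripts fell. SuUR was also the only match among 19 genes listed for DNA replication.

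Fatp1, a fatty acid transport protein gene, fell by a log2 change of -0.51 ± 0.17, with an adjusted p of 0.047 by limma. Its intensities were 1987, 1837 and 1700 at 8 h and 1488, 1449 and 1006 at 24 h. The fall of Fatp1 was part of a longer decline, from 3719, 5171 and 3622 at 4 h to 462, 630 and 714 at 36 h, whose log2 change was -2.80 ± 0.17 with an adjusted p of 4.1e-10 by limma. It was the only match among 15 genes listed for lipid handling. The call of Fatp1 between 8 h and 24 h was lost under 8 of 17 alternative settings, and that of His4r under 5 of 17. The alpha-Spec transcript, which encodes a subunit of the spectrin membrane skeleton, had 1182, 900 and 1143 at 8 h and 759, 743 and 871 at 24 h. Its groups did not overlap, and its log2 change of -0.44 ± 0.16 had an adjusted p of 0.054 by limma. It was called under 5 of 17 alternative settings, with an adjusted p down to 0.011. LanA, which encodes the alpha subunit of a laminin of the basement membrane, had 5857, 4876 and 5391 at 8 h and 5953, 6041 and 6183 at 24 h, with an adjusted p of 0.20 by limma. It was the only match among 15 genes listed for haemocytes. The remaining transcripts of 1 gene were those of NaPi-III (a phosphate transporter family member), CG16974, Uba1 (the ubiquitin-activating enzyme), rdx (a Cullin-3 adaptor) and sle. Uba1 and rdx were the 2 matches among 11 genes listed for the ubiquitin system. The groups of all 5 transcripts overlapped, their log2 changes lay between -0.30 and -0.04, and their adjusted p by limma was between 0.29 and 0.88.

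CG31178, for which the reference table lists Tes87 as a synonym, was the only one of the 16 in the set of 334 and in the set of 142. Its intensities were 20.2, 37.7 and 47.6 at 8 h and 22.3, 172 and 193 at 24 h. Replicate 1 at 24 h was thus at the level of the dimmest 8 h array, while the other 24 h arrays were several times higher. At 36 h it had 1033, 241 and 234, with replicate 1 the highest, and on the gland arrays at 24 h it was between 13.1 and 16.4. With all arrays its log2 change was 1.45 ± 0.62 with an adjusted p of 0.11 by limma, and without replicate 1 it was 2.46 with an adjusted p of 0.00075 by limma.

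**Figure D4:**
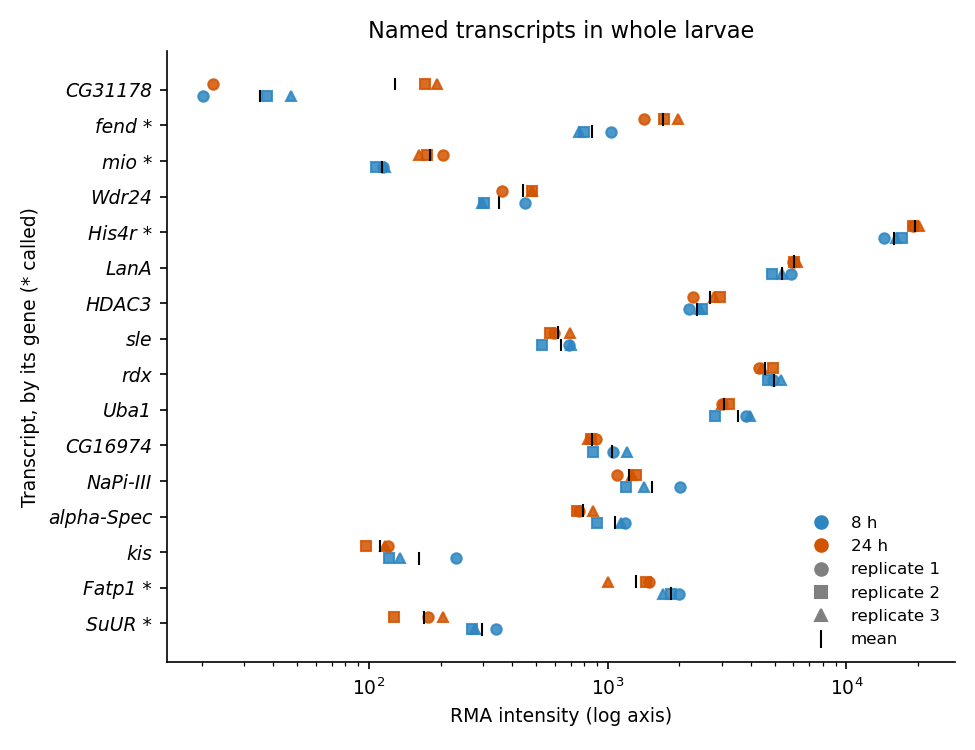
RMA intensity (log axis) of the 16 transcripts matched to 1 gene, on each 8 h and 24 h whole-larva array (points, by replicate) with the group mean (vertical bar) and an asterisk where the change was called. CG31178, in the top row, has 24 h replicate 1 at 22.3 among the 8 h values and the other 24 h arrays at 172 and 193, while SuUR, in the bottom row, has all 24 h arrays under all 8 h arrays.

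The other 28 identifiers are each listed under more than 1 gene, so that an intensity cannot be assigned to 1 product. For 26 of them the table lists 1 upstream and 1 main reading frame. These fall outside the rule for naming and were taken up after their values were seen. Of the 28, 2 rose, 10 fell and 16 were not called, and without 24 h replicate 1 these counts were 1, 9 and 18. Over all transcripts 10.1% rose and 10.6% fell with all arrays, and 12.8% and 10.9% without that array. Among the brightest of the 4 groups, which held 20 of the 28, 16.3% rose and 15.3% fell with all arrays. For the 28, the 8 h and 24 h arrays did not overlap in 17, with 24 h above 8 h in 4 and below it in 13, against 18% and 19% of all transcripts. The median log2 change of the 28 was -0.20.

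The lowest adjusted p among these falls was that of the transcript of Rpp14a, a ribonuclease P subunit, and CG7950. It had 8850, 9678 and 8855 at 8 h and 4949, 5416 and 5478 at 24 h, a log2 change of -0.79 ± 0.09 with an adjusted p of 2.4e-06 by limma. All 24 h arrays, replicate 1 included, were close to the 36 h levels of 4130, 5061 and 4770. The transcript of Tim10, a carrier of mitochondrial protein import, and CG42497 had 17765, 17548 and 15992 at 8 h and 12330, 13638 and 12375 at 24 h, a log2 change of -0.42 ± 0.07. The transcript of Mvk (mevalonate kinase) and CG33672 had 1687, 2041 and 1699 at 8 h and 1192, 1315 and 1031 at 24 h, a log2 change of -0.62 ± 0.15. In both, the groups did not overlap, and the adjusted p by limma was 0.00025 and 0.006.

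A further 6 falls concerned the transcripts of PIG-M, a mannosyltransferase of GPI anchor synthesis, with CG42379, CG42380 and CG42381, of vnc, an N-terminal acetyltransferase subunit, with CG42455, and of Polr3K, a subunit of RNA polymerase III, with Tcs1, as well as CG30100 with CG42372, CG5116 with CG42488 and CG8026 with CG45085. Their log2 changes lay between -0.52 and -0.31. Of 17 alternative settings, 5 ended the call of Polr3K with Tcs1, 5 that of CG8026 with CG45085, 2 that of CG5116 with CG42488, 2 that of vnc with CG42455 and 1 each those of CG30100 with CG42372 and of Tim10 with CG42497. The tenth fall was that of lmgA, which encodes a part of the anaphase-promoting complex, and lmgB. The transcript had 235, 167 and 89.8 at 8 h and 69.7, 66 and 78.9 at 24 h. Its log2 change was -1.09 ± 0.36 with an adjusted p of 0.036 by limma. The call was lost under 8 of 17 alternative settings, with an adjusted p of 0.066 without 24 h replicate 1 and 0.19 without 8 h replicate 1.

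The 2 rises in this group differed in their course. The transcript of CG10570 and CG42502 had 9355, 9475 and 11548 at 8 h and 18281, 17665 and 19563 at 24 h, a log2 change of 0.88 ± 0.20 with an adjusted p of 0.0038 by limma. It had been at 14714, 14481 and 14387 at 4 h, so that its 8 h arrays were below both earlier and later arrays. The transcript of CG32573 and CG42512 had 70.3, 58.6 and 67.2 at 8 h and 102, 76.2 and 101 at 24 h, a log2 change of 0.50 ± 0.15 with an adjusted p of 0.02 by limma. At 36 h it was at 1235, 1256 and 1281, so nearly all of its rise lay after 24 h. The call of that transcript was lost under 7 of 17 alternative settings, among them those without 24 h replicate 1 (adjusted p 0.070 by limma), 24 h replicate 3 (0.091) and 8 h replicate 2 (0.088).

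The ring gland over the same hours, in arrays that share none with the larva, gave 845 rises (5.08%) and 929 falls (5.58%). Calls in gland and larva are not independent, since the spread of a transcript came from the same fit, and these shares are not matched for brightness. Of the larval rises 264 (15.7%) also rose in the gland and 63 fell there, and of the larval falls 402 (22.9%) also fell in the gland and 45 rose. The shared transcripts made up 31.2% of the gland's rises and 43.3% of its falls. Among changes of at least 4-fold, 50 of 101 larval rises and 68 of 133 larval falls had the same direction in the gland, while 0 and 2 had the opposite one. Without 24 h replicate 1 the larval rises of at least 4-fold numbered 235, of which 46 also rose in the gland. The share of strong rises with a rise in the gland was thus 49.5% with replicate 1 and 19.6% without it.

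The change from 8 to 24 h differed between larva and gland for 1604 transcripts (9.64%), by the interaction contrast in limma at an adjusted p under 0.05. The change was more positive in the larva for 760 (4.57%) and more negative for 844 (5.07%). The difference was called for 537 of the 1686 larval rises and 551 of the 1758 larval falls. The larval change is part of this difference, so a choice of transcripts by it favours such calls. The difference was also called for all 63 and 45 transcripts that moved in opposite directions, an outcome that the choice of opposite directions makes nearly certain. Without 24 h replicate 1 the difference was called for 796 of the 2131 rises and 630 of the 1809 falls called in that fit. A larval array includes the ring gland, which is a small part of the animal.

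**Figure D5:**
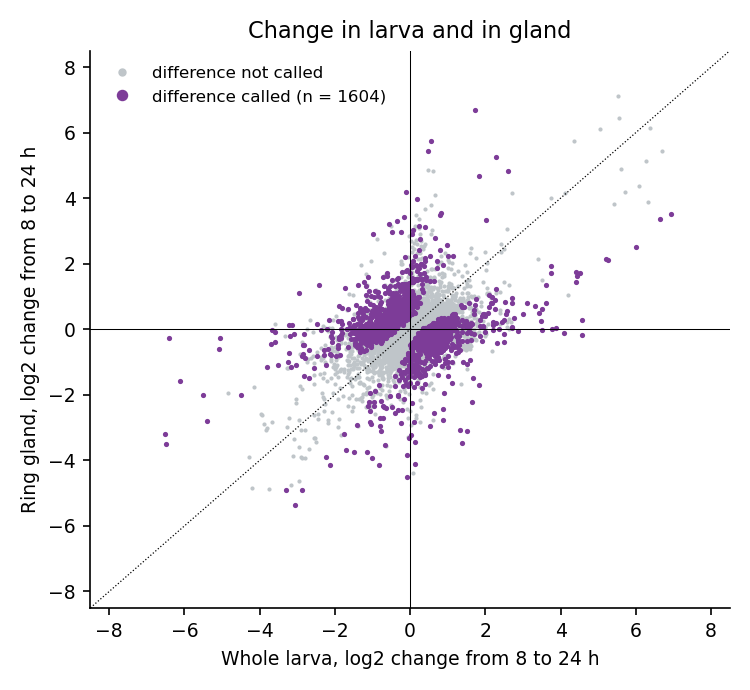
Log2 change from 8 to 24 h in the whole larva (horizontal) and in the ring gland (vertical) for each of the 16637 transcripts (points), with purple points for the 1604 whose change differed between them by limma. The dotted line marks equal change. Of the 133 larval falls of at least 4-fold, 68 also fell in the gland, and of the 101 rises of that size 50 also rose there.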

How the data were processed

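The authors deposited 1 value per transcript and array for one-colour Cy3 NimbleGen arrays, which are intensities on a linear scale made with robust multi-array averaging (RMA), per the submitters' processing notes. Which RMA version, probe annotation and background correction were used is not stated in the labels. From these intensities log2 values were taken without a further normalization or filter. All 24 wild-type arrays (8 groups of 3) were fitted with group means in limma 3.58.1 (R 4.3.3), which share 1 estimate of the spread, and contrasts were tested with eBayes, 2-sided, with Benjamini-Hochberg adjustment over 16637 transcripts. The threshold for a call was an adjusted p under 0.05. The fit was tested on simulated data with known changes. In these the noise of a transcript was normal with the same spread on every array, so the test does not cover an array that stands apart from its group. The driver-cross arrays were left out, since they may have been normalized apart from the wild-type arrays, which was not tested.

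Transcripts were named where the RefSeq gene table (assembly Release 6 plus ISO1 MT) pairs the identifier with exactly 1 gene, which held for 16, and the 2 largest rises and 2 largest falls called without overlap are given by identifier. No sequence is shown, since none was given with the gene table. The members, gene lists and tests were chosen with earlier results of these data known. Of 15 gene lists, 8 had no matched transcript, and no other had more than 3. Precision is limited by the number of arrays, 3 in each group. The alternatives tried were a further quantile normalization, centring, a filter on dim transcripts, a pseudocount of 16, other moderation, array weights, fewer groups in the fit, the replicate number as a block, a 2-fold minimum and leaving out each array.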

Additional observations from a re-analysis of the deposited data

Results flagged for a closer look

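The change from 8 to 24 h differed between whole larva and ring gland, tested as an interaction in limma, for 1604 transcripts, and the following named transcripts were among them. FBtr0073750 had a log2 change larger by 3.43 in the larva than in the gland, although it rose in both. Its gland intensities were 14.3, 15.6 and 16.8 at 8 h and 388, 33.7 and 425 at 24 h, so its gland rise was uneven between arrays. FBtr0077057 and FBtr0085054 fell in both, with larva-minus-gland differences of -3.34 and -3.00 on the log2 scale. The transcript of CG10570 and CG42502 rose more in the gland, with a difference of -1.10. The transcript of CG5116 and CG42488 fell in the larva and had gland intensities of 2091, 2325 and 2267 at 8 h and 2776, 2751 and 2722 at 24 h, where it was not called, and the difference was -0.83. The transcript of CG7950 and Rpp14a fell in both, more so in the larva, with a difference of -0.51. The transcript of PIG-M, CG42379, CG42380 and CG42381 fell in the larva and was not called in the gland, with a difference of -0.69. Their adjusted p for the difference was between 0.00024 and 0.021 by limma.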

How the results depend on the processing

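The calls between 8 h and 24 h in the larva numbered 3444, and 955 with a minimum change of 2-fold, which leaves out small changes by construction. Without 24 h replicate 1 that minimum gave 1577. With that minimum the larva-gland difference had 764 calls, the gland comparison 624 and the 36 h against 4 h comparison 3697. Array weights, whose estimation stopped before it converged, gave 4788 calls for the larva, 2607 of them higher and 2181 lower, and 2541 for the larva-gland difference. A fit on the compared groups alone gave 2804 for the larva, 1319 of them higher and 1485 lower, and 1069 for the gland. The cause was not tested. Leaving out 1 array in turn gave 2605 to 3940 calls for the larva, 1116 to 1934 for the larva-gland difference, 1291 to 1477 for the gland and 7957 to 8310 for 36 h against 4 h. The larval maximum was reached without 24 h replicate 1. Centring the arrays gave 1903 higher and 1768 lower calls in the larva. Whether the replicate numbers pair the samples was not settled. The deviations of same-numbered 8 h and 24 h arrays correlated at 0.335, 0.055 and 0.258. Those of differently numbered arrays correlated at -0.344 to 0.251. With replicate number as a block the 4 counts were 3319 for the larva, 1492 for the difference, 1667 for the gland and 8905 for 36 h against 4 h. The position of 24 h replicate 1 on the axis was 0.368 to 0.449 under 4 alternatives. Changes of sign were seen only in 4 transcripts near 0 that were not called. FBtr0071140 (ND-MNLL, CG45089) had log2 changes of -0.053 to 0.070 when single arrays were left out and -0.0032 with array weights. FBtr0079006 (CG33995, CG44000, CG44001) had -0.051 to 0.081 without single arrays, -0.024 with array weights, -0.051 in the compared groups alone and -0.025 after centring, both without 24 h replicate 1. FBtr0084211 (Muted, CG7071) had -0.011 to 0.0999 and sle -0.17 to 0.040 without single arrays, and sle had 0.020 after centring without 24 h replicate 1. FBtr0071140 had -0.0056 in the compared groups alone without 24 h replicate 1. Fits without 24 h replicate 1 that were limited to the compared groups or centred, and the fold counts without it, were chosen after seeing the data.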
